A study of Drosophila melanogaster with 6 samples.

Results

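The rhodopsin genes of Drosophila melanogaster were taken as all probe sets of the deposited table whose gene symbol, split where several genes share a probe set, is ninaE, Rh2, Rh3, Rh4, Rh5, Rh6 or Rh7. These 7 genes have 9 probe sets among the 18769 probe sets tested. The young age group was 3 days old and the old age group was 45 days old, with 3 samples each, and every sample was measured on its own array. By the sample labels and the methods, each sample was RNA from whole bodies of a mix of 100 female and 100 male flies. Other passages of the study speak of female flies only, and the labels are followed here. Flies of both groups were of the isogenic stock y(1), w67c23(2), so all of them carried a mutant yellow allele and a mutant white allele, and both groups were kept at 20 °C. Samples are called Young1, Young2, Young3, Old4, Old5 and Old6, after the columns of the table. Each value is a log2 intensity normalized with GCRMA, a method that corrects background from the probe sequence and brings the arrays close to a common distribution of values. The lowest value among the probe sets tested was 1.51 and the highest 15.05. Many lay at the low end of the scale, with 56.0% under log2 4.

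Rhodopsins are the light receptors of the fly eye. Each consists of an opsin protein bound to a retinal derivative made from dietary carotenoids, and light turns it into an active form that signals through a G protein, phospholipase C and the TRP and TRPL channels. A facet of the compound eye holds outer photoreceptors, called R1 to R6, and a pair of inner photoreceptors, R7 and R8. The outer cells use Rh1, the product of ninaE. In the pale type of facet R7 uses Rh3 and R8 uses Rh5, while in the yellow type R7 uses Rh4 and R8 uses Rh6. Rh2 is the opsin of the ocelli, the simple eyes on top of the head, and Rh7 has been described in clock neurons of the brain. Flies that lack white function have eyes without screening pigment.

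Photoreceptor RNA was measurable in these whole-body samples. Of 14 photoreceptor marker genes on the array, 11 had a mean of log2 6 or more over the 6 samples. The exceptions were eys, prom and ninaA, which stood near the bottom of the scale at either age. Of 11 genes listed as pan-neuronal markers and found on the array, brp, nSyb, para, VGlut and elav did not reach that mean. The other 6 were cac, ChAT, futsch, Gad1, Syt1 and Vmat. The list holds genes of particular transmitters, such as ChAT, Gad1 and Vmat, so it does not stand for all neurons alike. The old samples also differed from each other in other tissues. Relative to the young mean, the mean of 10 eggshell genes was -1.16 in Old4, -3.67 in Old5 and -10.1 in Old6 on the log2 scale. The mean of 6 flight muscle genes was -1.41, -3.70 and -3.71 in the same samples. By the criteria given next, all 6 of these flight muscle genes were downregulated.

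The age groups were compared with limma. A gene was called where it passed 3 criteria taken from the methods of the study, a fold difference over 2, a p under 0.05 and a false discovery rate (FDR) under 0.15. The FDR was computed over all probe sets tested. A gene with more than 1 probe set is represented by the brightest one. Errors are the SD of 3 samples, and the interval given with a log2 change is the 95% interval of limma. In RNA from whole flies, a change in the number of cells of a type and a change in RNA per cell cannot be told apart.

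By these criteria 5 of the 7 rhodopsin genes were upregulated in the old age group, Rh2, Rh3, Rh4, Rh5 and Rh6, and 0 were downregulated. Their fold differences lay between 2.16 and 2.51. ninaE had a smaller difference, of 1.30-fold, and Rh7 stayed near the bottom of the scale at either age. Over all probe sets tested, 3.45% were called higher and 2.96% were called lower, and among probe sets with a mean of log2 6 or more 5.88% were called higher. In 6 of the 7 genes every old sample was above every young sample, against 16.1% of all probe sets and 30.3% of those with a mean of log2 6 or more. The median log2 change of the 7 genes was 1.13, and that of all probe sets was 8.17e-04.

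**Figure D1:**
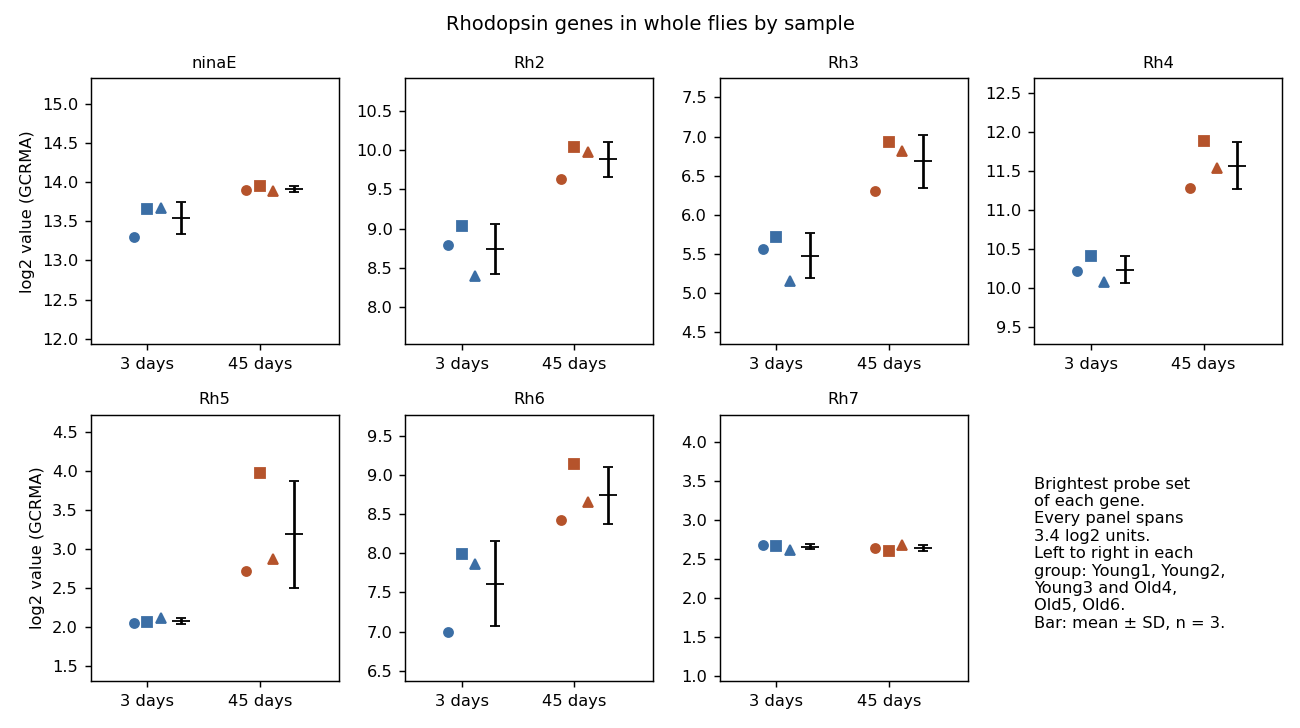
Log2 value (GCRMA, y axis) of the brightest probe set of each rhodopsin gene in the 3 young samples (blue, 3 days) and the 3 old samples (brown, 45 days), with the mean and SD of each group in black. The groups do not overlap in 6 of the 7 panels, and Rh7 lies at about 2.6 in both.

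The R7 opsins rose together. The yellow R7 opsin gene Rh4 (FBgn0003250) had values of 10.22, 10.42 and 10.08 in Young1 to Young3, against 11.28, 11.89 and 11.54 in Old4 to Old6. The lowest old sample was thus above the highest young one, and the young samples lay close together. The fold difference was 2.51, with a log2 change of 1.33 (interval 0.86 to 1.80, FDR 0.0134, limma). Rh4 was called under each of the 15 alternatives run.

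The pale R7 opsin gene Rh3 (FBgn0003249) was dimmer. It had values of 5.56, 5.71 and 5.15 in Young1 to Young3, against 6.30, 6.93 and 6.81 in Old4 to Old6. Here too the groups did not overlap. The log2 change was 1.21 (interval 0.60 to 1.81, FDR 0.0350, limma), a fold difference of 2.31. Rh3 was called under 14 of 15 alternatives and missed the fold criterion with array weights, at a log2 change of 0.94.

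The R8 opsin genes were also called higher, with wider intervals. The yellow R8 opsin gene Rh6 (FBgn0019940) was at 6.99 in Young1, 7.99 in Young2 and 7.86 in Young3, and at 8.43, 9.15 and 8.65 in Old4, Old5 and Old6. Young1 stood about a unit under the other young samples, and Old4 was less than 0.5 above Young2. The log2 change was 1.13 (interval 0.23 to 2.03, FDR 0.122, limma). This call was lost whichever sample was left out, and it held under 5 of 15 alternatives. Without Young1 the log2 change was 0.82, and without Old5 the FDR was 0.301 (limma).

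The pale R8 opsin gene Rh5 (FBgn0014019) was at the low end of the scale in all young samples, at 2.05, 2.07 and 2.12. In Old4, Old5 and Old6 it was at 2.72, 3.98 and 2.88. Every old sample was above every young sample, yet Old5 was set apart from the other old samples and all values were under log2 4. The log2 change was 1.11 (interval 0.17 to 2.05, FDR 0.143, limma). It was called under 3 of 14 alternatives, and with values under log2 4 raised to 4 no change was left. Without Old5 the log2 change was 0.71, and it missed the fold criterion.

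Rh2 (FBgn0003248), the opsin gene of the ocelli, was at 8.79 in Young1, 9.03 in Young2 and 8.40 in Young3. It was at 9.63 in Old4, 10.04 in Old5 and 9.98 in Old6. Old samples were all above young samples. The log2 change was 1.15 (interval 0.62 to 1.68, FDR 0.0283, limma), which is a fold difference of 2.22. Rh2 was called under 13 of 15 alternatives. Without Young3 its log2 change was 0.98, and with array weights it was 0.85, both short of a 2-fold difference.

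The gene for the major rhodopsin, ninaE (FBgn0002940), was bright in every sample. By the probe set of its own, it had values of 13.30, 13.65 and 13.67 in Young1 to Young3, against 13.91, 13.96 and 13.89 in Old4 to Old6. The old samples were close together and above all young samples. The log2 change was 0.38 (interval 0.09 to 0.66, FDR 0.114, limma), so it met the p and FDR criteria and missed the fold criterion. It was not called under any of the 15 alternatives, and without Young1 the log2 change was 0.25. A further probe set carries the names of both ninaE and lectin-28C, and the table gives for it the FlyBase identifier of lectin-28C alone. It was at 11.71, 12.34 and 11.55 in the young samples and at 12.06, 12.11 and 12.23 in the old ones, where the groups overlapped (log2 change 0.27, FDR 0.713, limma).

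Rh7 (FBgn0036260) gave no signal above the low end of the scale. Its brighter probe set was between 2.62 and 2.67 in young samples and between 2.60 and 2.67 in old samples, and its other probe set was between 1.86 and 1.89 in both. The log2 changes were -0.02 (FDR 1, limma) and 0.0029. At this signal, no change of Rh7 was detectable.

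**Figure D2:**
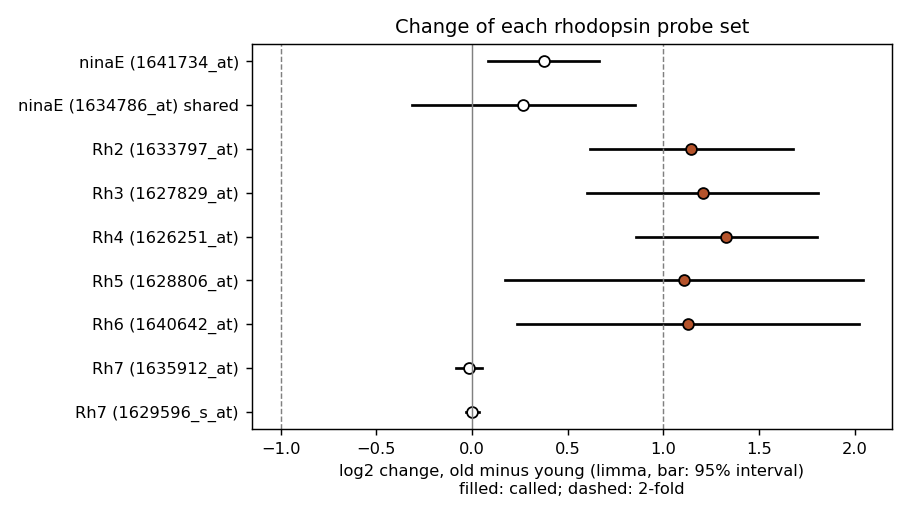
Log2 change, old minus young, of the 9 rhodopsin probe sets (points) with 95% intervals from limma (bars). Filled points passed the 3 criteria, dashed lines mark a 2-fold difference, and the label "shared" marks the probe set that also carries the name lectin-28C. The intervals of Rh2, Rh3, Rh4, Rh5, Rh6 and of ninaE by its own probe set lie above 0.

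The highest old sample was shared across the family, and the order of the others varied. Among the 5 genes with a mean of log2 6 or more, which are ninaE, Rh2, Rh3, Rh4 and Rh6, the highest old sample was Old5 in all 5. The lowest old sample was Old6 in ninaE and Old4 in the others. The highest young sample was Young2 in 4 of them and Young3 in ninaE, and the lowest was Young3 in Rh2, Rh3 and Rh4 and Young1 in ninaE and Rh6. The mean of these 5 genes, relative to the young mean, came to -0.15, 0.24 and -0.09 in Young1 to Young3 and to 0.79, 1.27 and 1.05 in Old4 to Old6. Young2 was the highest young sample in other lists too, with 0.19 for the photoreceptor markers, 0.31 for the pan-neuronal markers and 0.23 for the glial markers. Old5 was the highest old sample for the photoreceptor markers (0.26) and not for the glial ones.

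Whether members changed by different amounts was tested with differences taken within each sample, which leave out anything that moves both genes alike. With 3 samples at each age, 0.1 is the smallest p that the exact two-sided permutation test can reach. In all, 6 such differences were tested, and p-values were adjusted over them. For the R7 opsin genes, Rh4 minus Rh3 was 4.76 ± 0.14 in young and 4.89 ± 0.14 in old samples (SD, n = 3). The shift of 0.12 had an interval of -0.20 to 0.45 (exact p = 0.2, adjusted 0.24), and the groups overlapped. For the R8 opsin genes, Rh6 minus Rh5 shifted by 0.02 with an interval of -0.97 to 1.01 (exact p = 0.9, adjusted 0.9). The ends of this range are close to a 2-fold shift in either direction. Rh5 was near the low end of the scale, and with values under log2 4 raised to 4 the shift was 1.13 (exact p = 0.1), which is then the change of Rh6 alone.

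The opsin gene of the outer photoreceptors was set against those of R7. The value of ninaE minus the mean of Rh3 and Rh4 was 5.41, 5.59 and 6.05 in Young1, Young2 and Young3 and 5.11, 4.55 and 4.71 in Old4, Old5 and Old6. All old samples were under all young samples, and the shift was -0.89 (interval -1.60 to -0.19, exact p = 0.1, adjusted 0.15). Rh2 minus ninaE went from -4.80 ± 0.41 to -4.03 ± 0.21 (SD, n = 3), a shift of 0.77 with an interval of 0.03 to 1.51 (exact p = 0.1, adjusted 0.15). ninaE was bright in all samples, between 13.30 and 13.96, where the highest value tested was 15.05. What a bright signal of this kind does to the size of the change was not tested.

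**Figure D3:**
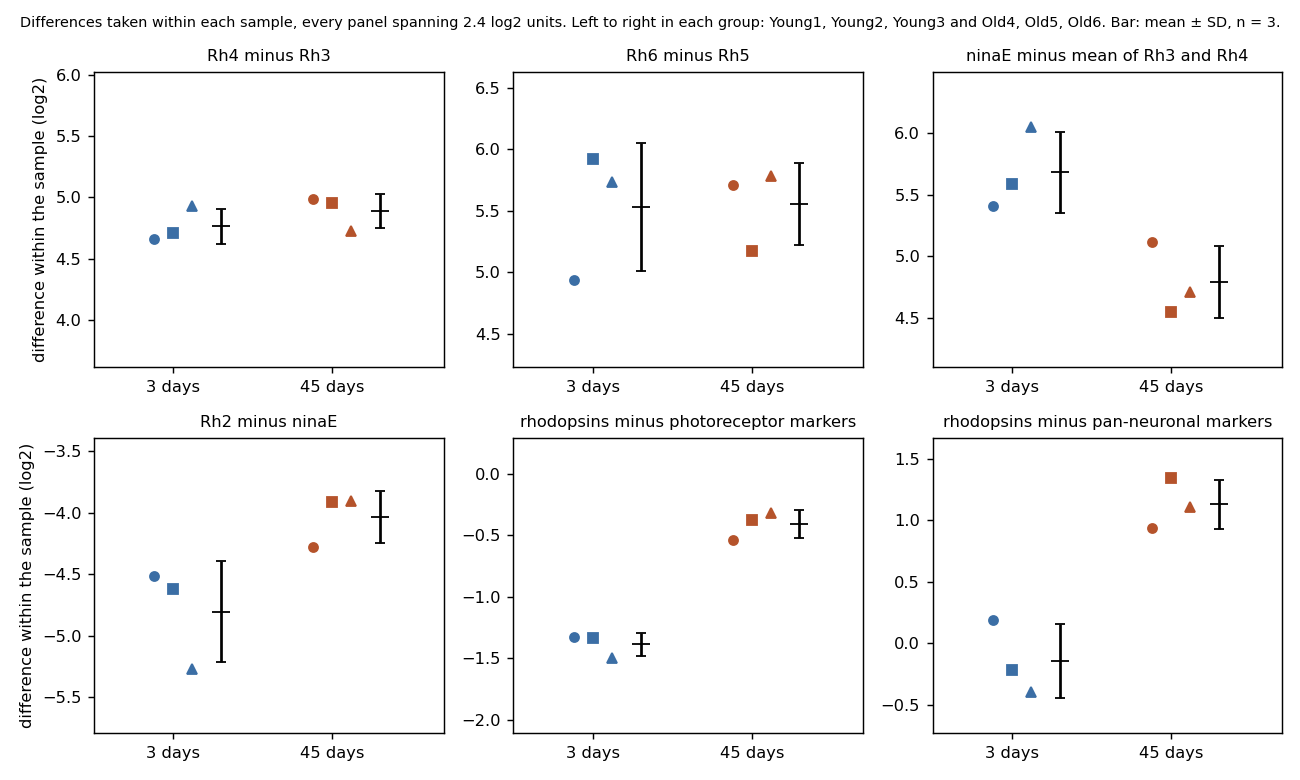
Differences between genes or gene lists within each sample (y axis, log2) for young samples (blue) and old samples (brown), with the mean and SD of each group in black. Old and young samples overlap for Rh4 minus Rh3 and for Rh6 minus Rh5 and do not overlap in the other 4 panels.

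The rhodopsin genes were then set against other genes of the photoreceptor. For each sample, the mean of the 5 rhodopsin genes minus the mean of the 11 photoreceptor markers was taken. This came to -1.33, -1.33 and -1.50 in Young1 to Young3, against -0.53, -0.37 and -0.32 in Old4 to Old6. Samples of 1 age lay close to each other, and the ages were far apart. The shift was 0.98 (interval 0.74 to 1.21, exact p = 0.1, the smallest possible, adjusted 0.15). Leaving out each sample in turn gave 0.92 to 1.04. Of the 5 genes, Rh3 had its mean above log2 6 through the old samples only, and without it the shift was 0.94 (exact p = 0.1). Against the 6 measurable genes listed as pan-neuronal markers the shift was 1.27 (interval 0.69 to 1.85, exact p = 0.1, adjusted 0.15), and 1.23 without Rh3. Of these 6, ChAT had a group mean above log2 6 in the young samples only, at 6.46 against 5.97 in the old ones. The shift without ChAT was not tested. Since the 6 include genes of particular transmitters, the shift of 1.27 is not one against neurons in general. Relative to the photoreceptor markers, the log2 change was 0.32 for ninaE, 1.09 for Rh2, 1.15 for Rh3, 1.27 for Rh4 and 1.07 for Rh6.

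**Figure D4:**
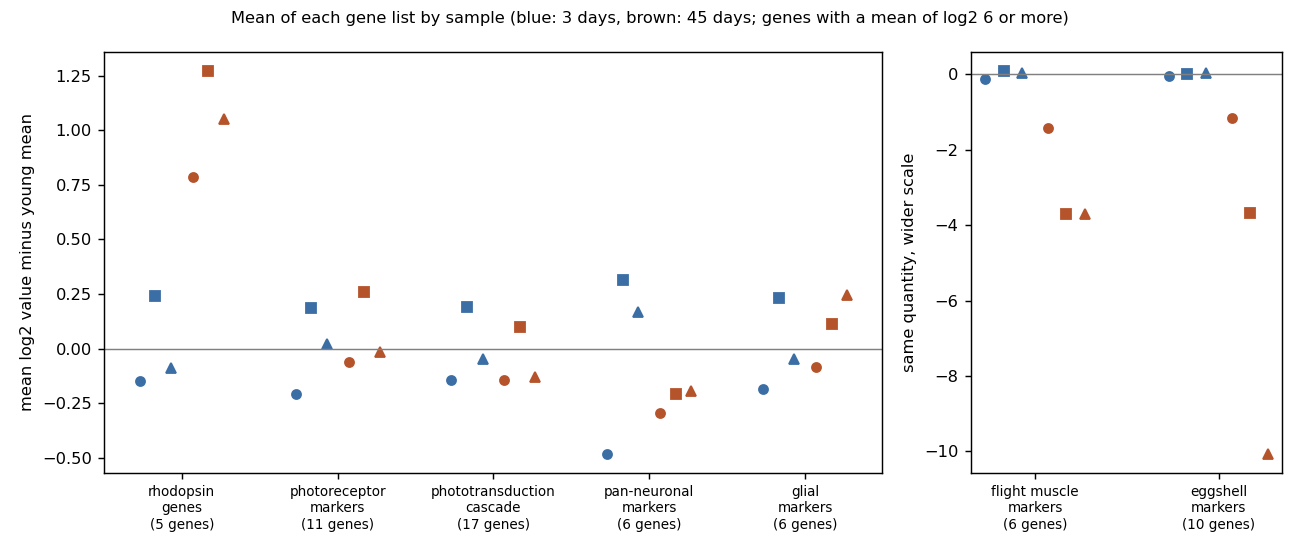
Mean log2 value of each gene list in each sample minus the mean of the young samples (y axis), for genes with a mean of log2 6 or more, with blue points for 3 days and brown points for 45 days. Circles are Young1 and Old4, squares Young2 and Old5, triangles Young3 and Old6. Of the 5 lists drawn in the left panel, the rhodopsin genes alone have all old samples above all young ones. The list of genes for rhodopsin folding and transport, described below and not drawn, has this too. It was at 0.05, -0.01 and -0.04 in Young1 to Young3 and at 0.11, 0.24 and 0.17 in Old4 to Old6. The eggshell genes reach -10.1 in Old6 in the right panel, which has a wider scale.

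The phototransduction cascade downstream of the rhodopsins has 19 listed genes on the array, and 0 of them were called in either direction by the brightest probe set. Over all probe sets tested, 3.45% were called higher and 2.96% lower, so 0 of 19 is near that share. The median log2 change of the 19 genes was -0.10, with 7 above and 12 below 0, and they include several of the photoreceptor markers. norpA, the phospholipase C of the cascade, averaged 12.38 ± 0.08 at 3 days and 12.28 ± 0.10 at 45 days (SD, n = 3). The channel gene trp was at 10.87 ± 0.05 and 10.79 ± 0.22. The other channel gene, trpl, had a log2 change of 0.76 (FDR 0.0531, limma) with all old samples above all young ones, short of a 2-fold difference. The gene rdgB, whose product carries phosphatidylinositol between membranes, had a log2 change of 1.06 and missed the FDR criterion (0.167, limma). It had values of 7.73, 9.06 and 8.33 in Young1 to Young3, against 9.19, 9.52 and 9.58 in Old4 to Old6. It was called under 3 of 15 alternatives. Without Young2 its log2 change was 1.40 and it passed, while it was 0.73 without Young1 and 0.42 with array weights.

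Probe sets of Galphaq, the G protein alpha subunit that rhodopsin activates, gave different values. The brightest had a log2 change of -0.57 (FDR 0.0373, limma) and was not called. The next had 0.20 (FDR 0.637, limma). The dimmest went from 7.71 ± 0.63 to 8.95 ± 0.31 and was called, with a log2 change of 1.24 (FDR 0.115, limma).

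Of the genes that shut rhodopsin off or take it down, 7 were found on the array, and 0 were called higher and 1 lower. The shares over all probe sets were 3.45% higher and 2.96% lower. The arrestin genes Arr1 and Arr2, whose products bind activated rhodopsin, had log2 changes of 0.50 (FDR 0.244, limma) and 0.34 (FDR 0.248, limma). In both, every old sample was above every young sample, as in 30.3% of probe sets with a mean of log2 6 or more. The gene called lower was Tsp42Ej, a tetraspanin of the lysosome known as sunglasses, which takes part in the breakdown of Rh1. It had values of 10.45, 11.35 and 10.73 in Young1 to Young3, against 9.97, 9.83 and 9.59 in Old4 to Old6. The log2 change was -1.04 (FDR 0.0746, limma), and the call was lost without Young2, without Old5 or without Old6. Without Young2 the change was -0.79.

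Of 10 genes for the folding and transport of rhodopsin found on the array, 0 were called (3.45% higher and 2.96% lower over all probe sets). How much of their signal in whole flies came from photoreceptors was not tested. All 10 had a log2 change above 0, between 0.06 and 0.49 with a median of 0.18, against 53.1% of all probe sets and 56.0% of those with a mean of log2 6 or more. In 6 of the 10 every old sample was above every young sample, against 16.1% of all probe sets and 30.3% of those with a mean of log2 6 or more. Rip11, which acts with Rab11 in carrying Rh1 to the rhabdomere, went from 12.78 ± 0.05 to 12.96 ± 0.02 (SD, n = 3, log2 change 0.18, FDR 0.0197, limma). Rab6, another transport gene, had a log2 change of 0.32 (FDR 0.0625, limma). The largest of these changes was that of ninaA, the chaperone of Rh1, at 2.22 ± 0.12 and 2.72 ± 0.54, under log2 4 in both groups.

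Of the 6 genes that supply the chromophore, all on the array, 2 were called lower and 0 higher, with a median log2 change of -0.54. Over all probe sets tested, 2.96% were called lower and 3.45% higher. The scavenger receptor gene ninaD, required for the uptake of carotenoids, had values of 6.66, 6.78 and 7.29 in Young1 to Young3, against about 2, 2.03 and 2.05 in Old4 to Old6. The old samples were all at the low end of the scale and the young ones were all well above it. The fold difference was -29.5 (log2 change -4.88, FDR 7.47e-04, limma), and it depends on how low values are treated, since the log2 change was -2.91 with values under log2 4 raised to 4. ninaD was called under all 15 alternatives.

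The retinol dehydrogenase gene rdhB was the other gene called lower. It was at 3.34 in Young1, 7.01 in Young2 and 6.73 in Young3, and at 2.92, 1.88 and 2.05 in Old4, Old5 and Old6. Young1 was nearly as low as Old4. Its log2 change was -3.41 (FDR 0.143, limma), and the call held under 4 of 14 alternatives. It was lost without any 1 of Young2, Young3, Old4, Old5 and Old6, and with values under log2 4 raised to 4 the log2 change was -1.91. The scavenger receptor gene santa-maria and the gene of the carotenoid oxygenase ninaB, which act together in making retinal, had log2 changes of -0.28 (FDR 0.622, limma) and -0.79 (FDR 0.282, limma). The gene pinta, whose product binds retinoids in the pigment cells, had higher values in old flies. It had values of 9.69, 10.04 and 9.83 in Young1 to Young3, against 10.34, 10.48 and 10.68 in Old4 to Old6. The groups did not overlap, and the log2 change of 0.65 (FDR 0.0386, limma) was short of a 2-fold difference.

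Genes listed as markers of accessory cells of the eye were called in both directions. The values are from whole flies, and whether these changes arose in the eye was not tested. Of 5 marker genes of the lens and the pigment cells, 1 was called higher and 3 lower, against 3.45% and 2.96% of all probe sets. Crys, the gene of the lens protein crystallin, had values of 9.07, 8.24 and 9.48 in Young1 to Young3, against 11.62, 11.58 and 12.33 in Old4 to Old6. It was higher in every old sample, with a fold difference of 7.53 (FDR 0.0134, limma). Retinin, another gene of the lens, was at 10.94, 11.61 and 11.41 in the young samples and at 7.06, 2.59 and 2.63 in the old ones. Its log2 change was -7.23 (FDR 0.0327, limma), and Old4 stood well above the other old samples. Pdh, a retinol dehydrogenase of the pigment cells, went from 11.76 ± 0.11 to 10.00 ± 0.58 (SD, n = 3, log2 change -1.76, FDR 0.0267, limma). Crys, Retinin and Pdh were each called under all 15 alternatives.

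**Figure D5:**
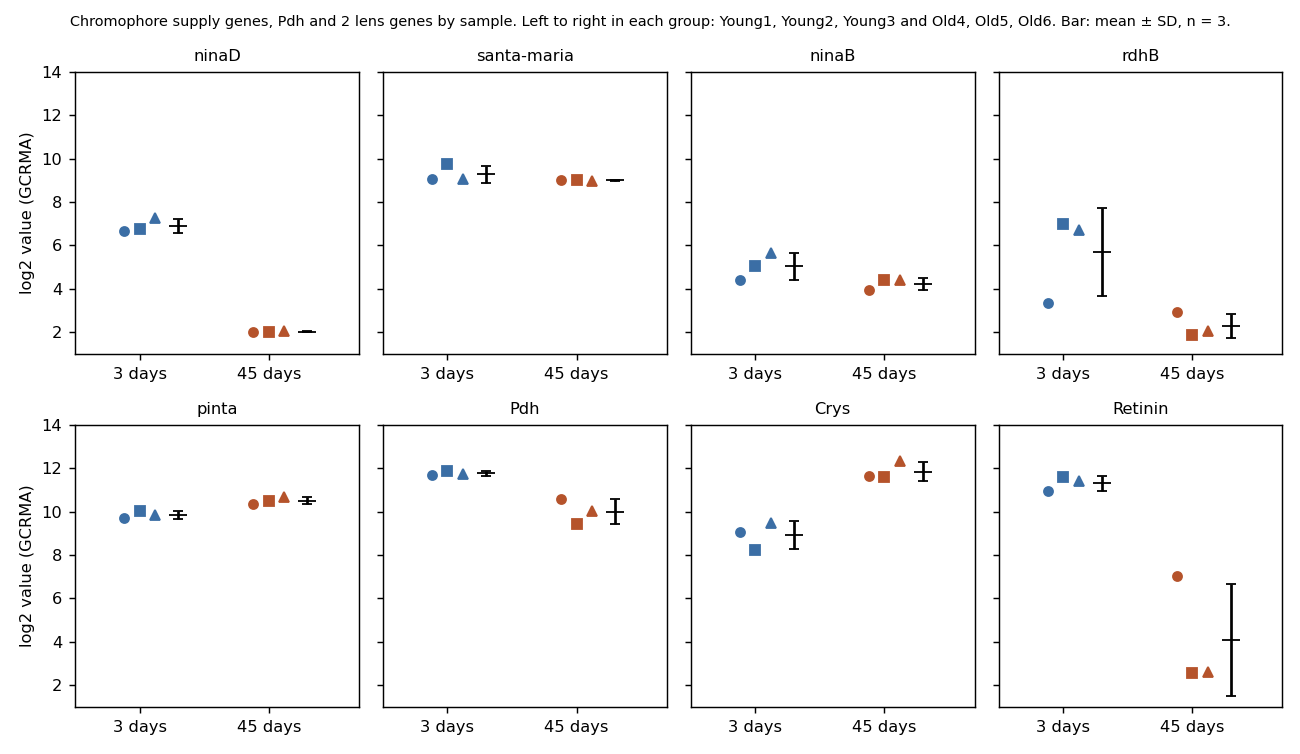
Log2 value (GCRMA, y axis) of 5 chromophore supply genes, the retinol dehydrogenase gene Pdh and the lens genes Crys and Retinin in young samples (blue) and old samples (brown), with the mean and SD of each group in black. ninaD is at about 2.0 in all old samples, pinta and Crys are higher in every old sample, and Pdh and Retinin are lower in every old sample.

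Of 17 listed transcription factors and signalling genes that set up rhodopsin expression during eye development, 4 had a mean of log2 6 or more. Of the 17, 0 were called higher and 2 were called lower, against 3.45% and 2.96% of all probe sets. The genes gl, oc and Pph13, which act on rhodopsin promoters or photoreceptor fate, had means under log2 6. Their log2 changes were 0.30, 0.12 and 0.07 (FDR 0.301, 0.366 and 0.345, limma). Pph13 was at the low end of the scale, at 2.09 in young and 2.16 in old samples, where a change is hard to detect. Of the genes called lower, eya went from 9.90 ± 0.17 to 8.12 ± 0.17 (SD, n = 3, FDR 0.0030, limma). The other, salm, had a log2 change of -2.29 (FDR 0.0705, limma) and lost its call without Young1, Young2, Old4 or Old6. As background, both also act in muscle. The gene dve, which represses rhodopsins in outer photoreceptors, had a log2 change of 0.92 (FDR 0.0374, limma) and was not called.

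Markers of neurons and glia stood beside these results as follows. For comparison, 3.45% of all probe sets were called higher and 2.96% lower. Of 11 genes listed as pan-neuronal markers, 0 were called higher and 1 lower, Gad1, the gene of the enzyme that makes the transmitter GABA (log2 change -1.28, FDR 0.0051, limma). The mean of the 6 measurable ones relative to young was between -0.48 and 0.31 in young and between -0.29 and -0.20 in old samples. Of 6 glial markers, 1 was called higher, moody, a receptor gene of the blood-brain barrier (log2 change 1.43, FDR 0.0091, limma), and 0 were called lower. The median of the 6 was -0.34, with 4 below 0, among them Eaat1, Gs2 and nrv2 (log2 changes of -0.54, -0.31 and -0.58). All 4 genes listed for histamine, the transmitter of photoreceptors, had means under log2 6, and 0 of them were called. All 10 eggshell genes had a log2 change under 0 and 1 was called lower, beside the 6 flight muscle genes, and the part of these tissues in the values of the rhodopsin genes, which are relative to all RNA of the fly, was not tested.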

How the data were processed

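RNA from 6 samples of whole flies, 3 per age group, was amplified and hybridized to Affymetrix GeneChip Drosophila Genome arrays, 1 array per sample. The deposited values are on the log2 scale. The authors normalized the arrays with GCRMA in Partek (version 6.5, per the labels), and the values were used as deposited. The number of arrays limits the precision. Of the probe sets, 183 controls were left out. The table numbers its old columns differently from the sample labels, so those columns were assigned to the old age group only. Nothing links samples to a batch.

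All probe sets were fitted in limma 3.58.1 (R 4.3.3) with age group as the only term. The methods of the study used SAM, whose p comes from a t-test, and the methods' t-test was run as an alternative. Other alternatives were a stricter FDR, array weights, another variance prior, other normalizations, a floor, a filter, the mean over probe sets, and each sample left out. The script was tested on simulated data. Differences within samples were compared by the exact permutation test. Their intervals assume normal values.

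Named genes were the rhodopsin genes, the listed genes chiefly where called, and the 5 probe sets closest in profile to the rhodopsins. Listed genes named without a call, the Galphaq probe sets and the neighbouring genes were chosen after their values were seen. Lists were matched by symbol. The alias sun of Tsp42Ej was dropped, since it names another gene in the table, and the XPORT genes share a probe set. Members and lists were chosen with earlier results of these data known. Gene neighbours came from RefSeq, Release 6. Gene coordinates served only to find these neighbours, and no sequences were used here.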

Additional observations from a re-analysis of the deposited data

How the results depend on the processing

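The number of rhodopsin genes called higher was 5. It was 3 with the methods' t-test, 3 at an FDR under 0.05, 3 with values under log2 4 raised to 4 and 2 with array weights. It ranged from 2 (without Young3) to 4 (without Old4) when each sample was left out, and was 3 without any 1 of Young1, Young2, Old5 and Old6. Lost calls were those of Rh5 and Rh6, and in 2 settings those of Rh2 or Rh3. The number called lower was 0 throughout. The median log2 change was 0.85 with array weights and otherwise lay between 0.93 and 1.29. The shift of Rh6 minus Rh5 was -0.0093 after repeated quantile normalization, from -0.27 to 0.21 with a sample left out, and 1.13 with values under log2 4 raised to 4, where Rh5 no longer varies. Leaving Rh3 out of the rhodopsin mean was chosen after seeing the data. Every other difference within samples kept its sign. The exact p of Rh2 minus ninaE was 0.2 without any 1 of Young3, Old5 and Old6. That of ninaE minus the mean of Rh3 and Rh4 was 0.2 without Young3, where the shift was -0.71. The cause of these changes was not tested. Rh5 and Rh7 were not tested where dim probe sets were filtered out. No paired analysis was possible because the old columns of the table carry other numbers than the sample labels. Signal over background limits Rh5 and Rh7, which were under log2 4 in all samples.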

Other observations

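The genes with the profile most like that of the rhodopsins were sought by the root mean square distance between centred log2 values over the 6 samples, among 6912 probe sets with a mean of log2 6 or more and a single gene symbol. The nearest was Zip99C, a metal transporter gene of the ZIP family, at a distance of 0.05 from the mean profile of the 5 rhodopsin genes. It had values of 11.05, 11.38 and 11.13 in Young1 to Young3, against 12.03, 12.37 and 12.16 in Old4 to Old6. Next came CG4577 (0.10), CG2076 (0.10), takeout (to, 0.10), which is known for roles in feeding and the circadian clock, and CG6353 (0.11). Their log2 changes lay between 0.89 and 1.16. For comparison, the distance of Rh2 to that mean profile was 0.15, that of Rh4 0.17 and that of ninaE 0.37. With 6 samples in 2 age groups, a profile is mostly set by the difference between the ages.

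The rhodopsin genes lie apart from each other on chromosome arms 2L, 3L and 3R. Their neighbours were found by gene coordinates and matched to the array by name. Of 17 protein-coding genes that overlap or flank them, all 17 were found on the array and 0 were called. Over all probe sets tested, 3.45% were called higher and 2.96% lower, so 0 of 17 is near that share. Of the 17 genes, 9 had a mean of log2 6 or more in at least 1 age group. The others were dimmer, where a change is harder to detect. The gene sina lies within Rh4 and is needed for R7 cells to form. Its mean went from 11.75 ± 0.05 to 11.64 ± 0.02 with age (SD, n = 3, FDR 0.0771, limma), while Rh4 rose. The lowest FDR among the 17 was that of CAH2, beside Rh7 (log2 change 0.32, FDR 0.0107, limma), and the largest change was that of CG4733, beside ninaE (-0.80, FDR 0.0238, limma). Neither reached a 2-fold difference.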
